A study of Mus musculus with 16 samples.

Results

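The 6 genes described here, Wdfy1, Efcab7, SLC25A37, Entpd4, Ide and Fgfbp3, are genes known or suspected to differ in RNA level between substrains of the C57BL/6 mouse. They were found by the exact symbol of their row among the 38087 genes of the count table, and each symbol named 1 row. They were chosen by, among other things, their read counts in germ-free against conventional gonads, so the differences of the 6 genes between these states are given as descriptions, with no test. Libraries were made from 5 ovaries of germ-free females (GF), 4 ovaries of conventional females (CV), 3 testes of germ-free males and 4 testes of conventional males. Germ-free mice are raised without microbes, and conventional mice carry a normal microbiota. All 16 libraries are labelled as C57BL/6j mice aged 15 to 16 weeks that fed freely, with tissue taken at zeitgeber time 2 to 4 h, counted from lights on. The labels name no supplier, colony or litter for either state, and they leave unsaid whether each library is a separate animal. A p-value here sets a difference against the spread of the libraries, part of which may be technical.

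C57BL/6 mice have been kept as separate colonies for many generations, and each colony has gathered its own mutations and copy number changes. The best known is a deletion in Nnt, the mitochondrial transhydrogenase gene, in C57BL/6J mice, and a copy gain on chromosome 19 that takes in Ide and Fgfbp3 has been described in some C57BL/6J mice but not others. Neither DNA copy number nor genotype was measured here. Wdfy1 encodes an endosomal protein with a FYVE domain and WD repeats that brings the adaptor TRIF to Toll-like receptors 3 and 4. Efcab7 encodes an EF-hand protein that, with IQCE, anchors the EVC complex at the base of the cilium, where it takes part in Hedgehog signalling. Entpd4 encodes a nucleoside diphosphatase of the Golgi and of lysosomes. Slc25a37 encodes mitoferrin, which brings iron into mitochondria. Ide encodes a zinc protease that breaks down insulin and amyloid peptides, and Fgfbp3 a secreted protein that binds fibroblast growth factors (FGFs).

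In the GRCm38 assembly with the GENCODE M21 annotation, Wdfy1 lies at chr1:79702262-79776143 on the minus strand and Efcab7 at chr4:99829198-99912788 on the plus strand. Ide lies at chr19:37268743-37337852 and Fgfbp3 at chr19:36917550-36919615, both on the minus strand. The row Entpd4 (ENSMUSG00000022066) is Entpd4b in this annotation, at chr14:69555424-69585520 on the plus strand. The row SLC25A37 in capitals (ENSMUSG00000093954) is not mitoferrin but Gm16867, at chr14:69363504-69503362 on the minus strand, and the true Slc25a37 is a row of its own, at chr14:69241848-69285112. Of all 100-base words in the annotated transcripts of each gene, those also found in transcripts of other genes, on either strand, were counted. They made up 7587 of 7878 words (96.3%) for SLC25A37 and 8304 of 8304 (100%) for Entpd4. SLC25A37 shared 6803 words with Gm27177, 1916 each with Entpd4 and Entpd4b, and 374 with Slc25a37. The row Entpd4 shared all 8304 with the gene the annotation calls Entpd4. The share was 27 of 5719 words (0.472%) for Wdfy1, all shared with Mrpl44, and 0 for Efcab7, Ide and Fgfbp3. Read counts of the 2 chromosome 14 rows are therefore uncertain. The counting could assign or drop reads that match several annotated genes, be these separate copies or genes that overlap.

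The coding sequences of Gm16867-201 and Slc25a37-201 are shown where they part, because this is what separates the row SLC25A37 from mitoferrin. The transcripts share their first 382 bases, 211 of them coding, and the capitals mark the 35 bases after that point, which end the 246-base reading frame of Gm16867 with a stop codon and continue the 1017-base frame of Slc25a37. Both are on the minus strand and span a splice junction. Exon parts lie at chr14:69502982-69503070 and chr14:69464976-69465011 for Gm16867 and at chr14:69284732-69284820 and chr14:69249587-69249622 for Slc25a37 (GRCm38, transcripts from GENCODE M21).
Gm16867-201: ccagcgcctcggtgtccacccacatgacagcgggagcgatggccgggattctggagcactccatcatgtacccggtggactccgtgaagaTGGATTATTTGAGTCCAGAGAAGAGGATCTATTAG
Slc25a37-201: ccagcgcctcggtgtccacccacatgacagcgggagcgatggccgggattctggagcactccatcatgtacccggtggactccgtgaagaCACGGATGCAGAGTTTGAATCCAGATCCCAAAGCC

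For Entpd4 the start of the coding sequence is shown to let a reader see that the copies cannot be told apart by sequence. A transcript of Entpd4b and one of Entpd4 are each 3589 bases long and have 0 mismatches. Bases 9 to 98 of the 1842 coding bases lie at chr14:69567323-69567412 in Entpd4b and at chr14:69349073-69349162 in Entpd4, both on the plus strand (GRCm38, GENCODE M21).
Entpd4b: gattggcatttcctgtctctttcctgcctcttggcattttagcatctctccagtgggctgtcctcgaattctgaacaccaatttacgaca
Entpd4: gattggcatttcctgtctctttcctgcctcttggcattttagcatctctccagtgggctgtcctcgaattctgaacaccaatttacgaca

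Totals ran from 12912251 to 15907297 counts in ovary and from 25880591 to 28266867 counts in testis libraries. Levels are CPM, the reads of a gene scaled to the size of its library, with library sizes adjusted by TMM (trimmed mean of M values) over all 16 libraries. Summed over 6 markers each, testis markers stood at 6615 to 6815 CPM in GF testes and 6795 to 7198 CPM in CV testes, and at most at 2.33 CPM in the ovaries. Ovary markers stood at 120 to 273 CPM in GF ovaries and 173 to 248 CPM in CV ovaries, and at 23.8 to 26.7 CPM in testes. Lists of markers of 3 other sources did not overlap between GF and CV testes, and none of their genes was at 0 throughout a testis group. Oviduct markers, of which Foxj1 is also used by sperm-forming cells, summed to 172 to 180 CPM in GF and 200 to 215 CPM in CV testes. Macrophage and B cell markers summed to 37.5 to 40.8 CPM in GF and 42.6 to 45.4 CPM in CV testes, and epididymis markers to 2.60 to 13.4 CPM in GF and 1.97 to 2.55 CPM in CV testes. In CV testes the epididymis sum was mostly Defb15, and in GF testes mostly Adam7 and Defb15. Adam7 was at 3.72 ± 6.35 CPM in GF and 0.101 ± 0.109 CPM in CV testes (SD). The GF sums were uneven, with a median of 2.85 CPM beside the maximum of 13.4 CPM. Defb15 was at 2.32 CPM in GF and 1.97 CPM in CV testes (edgeR adjusted p = 0.562). Among all tested genes of the testis, 16.7% had GF and CV ranges that did not overlap. The part of these lists in the testis values below was not tested. The other marker lists overlapped in the testis, and all overlapped in the ovary. In bulk tissue, fewer cells of a type and less RNA per cell cannot be told apart.

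Wdfy1 was higher in germ-free mice in both gonads, with no overlap of the groups. In GF ovaries it stood at 51.8, 63.9, 54.0, 58.8 and 57.3 CPM, and in CV ovaries at 27.9, 25.1, 25.1 and 22.2 CPM. In GF testes it stood at 201, 217 and 215 CPM, and in CV testes at 128, 130, 128 and 122 CPM. The lowest GF library lay above the highest CV library in each tissue. The log2 difference, GF over CV, was 1.18 (SE 0.0844) in the ovary, or 2.27-fold, and 0.75 (SE 0.0350) in the testis, or 1.68-fold. The testis difference was smaller than the ovary difference by 0.46 on the log2 scale (log2 change of -0.46, SE 0.0992, not tested). Counts behind these values ran from 393 to 1121 per ovary library and from 2468 to 4430 per testis library.

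Efcab7 followed the same order. In GF ovaries it stood at 8.44, 8.73, 7.88, 7.74 and 8.44 CPM, and in CV ovaries at 4.48, 3.99, 4.70 and 3.84 CPM. In GF testes it stood at 47.6, 48.5 and 52.6 CPM, and in CV testes at 31.2, 30.0, 28.2 and 26.9 CPM. Again every GF library lay above every CV library of its tissue. The log2 difference was 0.95 (SE 0.111) in the ovary, or 1.93-fold, and 0.79 (SE 0.0591) in the testis, or 1.72-fold. Between the tissues the log2 difference changed by -0.19 (SE 0.116, not tested). Both genes thus had the same order of groups, GF testis, CV testis, GF ovary, CV ovary, and no neighbouring pair in that order overlapped.

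The row SLC25A37 (Gm16867) showed the opposite pattern at a low level. In GF ovaries it had 0, 0, 1, 0 and 2 counts, and in CV ovaries 18, 24, 19 and 27 counts. In GF testes it had 0, 4 and 0 counts, and in CV testes 70, 81, 72 and 98 counts. No GF library came near a CV library in either tissue, and a count of 0 allows up to 3 counts, or 0.147 to 0.181 CPM depending on the library. Summed over libraries and scaled for depth, 3 counts in GF against 88 in CV ovaries give a ratio of 0.0269 (95% counting interval 0.00545 to 0.0814), and 4 counts in GF against 321 in CV testes a ratio of 0.0166 (0.00448 to 0.0428). These intervals cover counting error only. Levels averaged 0.0318 ± 0.0464 CPM in GF ovaries and 1.22 ± 0.246 CPM in CV ovaries (SD, n = 5 and 4), and 0.0653 ± 0.113 CPM in GF testes and 4.06 ± 0.553 CPM in CV testes (SD, n = 3 and 4). In CV mice the testis lay above the ovary without overlap, and in GF mice the tissues overlapped near 0. Mitoferrin itself, Slc25a37, differed by a log2 of 0.10 in the ovary (24.9 CPM in GF, 23.2 CPM in CV; edgeR adjusted p = 0.817) and of -0.01 in the testis (37.0 CPM in GF, 37.6 CPM in CV; adjusted p = 0.963), and 6.11% of its words are shared with other genes.

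Entpd4 was close to the limit of counting in every group and passed the expression filter in neither tissue. It had 7, 2, 1, 4 and 2 counts in GF ovaries and 15, 5, 7 and 8 counts in CV ovaries. It had 2, 1 and 4 counts in GF testes and 2, 0, 2 and 2 counts in CV testes. The groups overlapped in both tissues. The depth-scaled ratio of summed counts, GF over CV, was 0.361 in the ovary (95% counting interval 0.187 to 0.670; 16 against 35 counts) and 1.55 in the testis (0.446 to 5.58; 7 against 6 counts). A row ENTPD4 without a position in the annotation (ENSMUSG00000095669) held the same count in 15 of 16 libraries and differed by 1 in the other. The row ENTPD4 that the annotation calls Entpd4 (ENSMUSG00000095463) had 6 counts in GF and 17 in CV ovaries, a ratio of 0.279 (0.0900 to 0.741), and 13 counts in GF and 17 in CV testes, a ratio of 1.02 (0.454 to 2.22). Its count equalled that of the row Entpd4 in 1 of 16 libraries (53 against 64 counts in all). A partial copy of Loxl2 between these genes, the row LOXL2 (Gm21451, an unprocessed pseudogene), had 17 counts in GF and 70 in CV ovaries, a ratio of 0.192 (0.106 to 0.330), and 10 counts in GF and 11 in CV testes, a ratio of 1.21 (0.460 to 3.13). The full gene Loxl2, a collagen-crosslinking oxidase, was at 67.5 CPM in GF and 69.0 CPM in CV ovaries (log2 -0.04, adjusted p = 0.982).

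**Figure D1:**
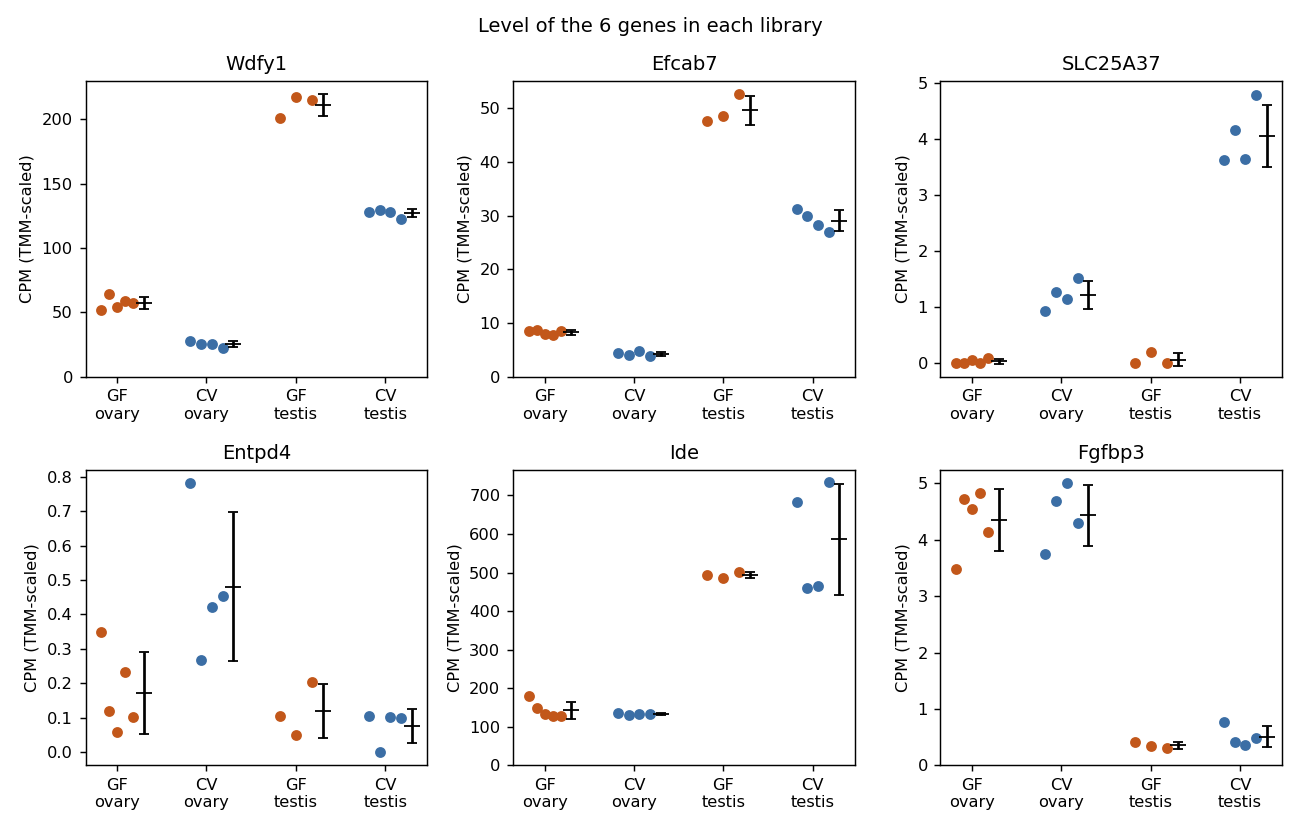
Level of each gene in every library, in CPM with TMM scaling over 16 libraries (vertical axis from near 0, linear), by group; points are libraries, the horizontal mark is the mean and the bar 1 SD (n = 5 GF and 4 CV ovaries, 3 GF and 4 CV testes). Wdfy1 and Efcab7 were higher and SLC25A37 lower in GF than in CV libraries of both tissues without overlap, while 2 CV testes stood apart for Ide.

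Ide, the insulin protease, did not separate GF from CV libraries but varied within groups. In GF ovaries it stood at 180, 148, 132, 129 and 129 CPM, and in CV ovaries at 137, 131, 133 and 133 CPM. In GF testes it stood at 493, 486 and 501 CPM, and in CV testes at 683, 461, 466 and 736 CPM. CV testes 1 and 4 lay above all other testes, the other CV testes lay below all GF testes, and GF ovary 1 lay above all other ovaries. The log2 difference was 0.10 (SE 0.0951) in the ovary and -0.23 (SE 0.204) in the testis. It was 0.01 (SE 0.0577) in the ovary without GF library 1, and -0.15 (SE 0.212) and -0.12 (SE 0.191) in the testis without CV library 1 and without CV library 4. Without CV library 2 or 3 it was -0.33 each time (SE 0.197 and 0.192), and with the library number as a replicate block it was -0.09 (SE 0.178). Within groups, the SD of the log2 level of Ide in the testis was 0.277, and none of the 483 tested genes within 0.5 of its mean log2 level had a larger one. In the ovary the SD was 0.158, and 24.5% of the 1155 genes of similar level had a larger one. For comparison, the testis SD of Wdfy1 was 0.0483, which 45.1% of 1565 genes of similar level exceeded.

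The same libraries stood out for a pseudogene inside Ide. Rpl10-ps6, a processed copy of a ribosomal protein gene, lies at chr19:37295155-37295796 on the strand of Ide and overlaps none of its exons. Relative to the median of the tissue, Ide was at 1.39 and Rpl10-ps6 at 1.49 in CV testis 1, at 1.49 and 1.36 in CV testis 4, and at 1.35 and 1.41 in GF ovary 1. Rpl10-ps6 had only 37 to 93 counts per ovary library, against 173 to 289 per testis library. Its ratio varied widely among ovaries, from 0.65 in CV ovary 2 and 0.66 in GF ovary 4 to 1.16 in CV ovary 4 and 1.41 in GF ovary 1. Over 16 libraries, after subtracting group means, Ide and Rpl10-ps6 had a Pearson's r of 0.74, given as a description, since both come from the same libraries and from overlapping DNA. Genes to either side did not stand out in the same testes. Btaf1, a transcription regulator, was at 0.912 and 1.0 of the median in CV testes 1 and 4, March5, a mitochondrial ubiquitin ligase, at 1.0 and 0.988, and Kif11, a mitotic kinesin, at 0.994 and 1.09. In GF ovary 1 Btaf1 was at 1.02, March5 at 1.14 and Kif11 at 1.38. Fgfbp3, which lies farther along chromosome 19, had its highest testis value in CV testis 1 but its lowest ovary value in GF ovary 1, and its group-centred r with Ide was 0.28.

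**Figure D2:**
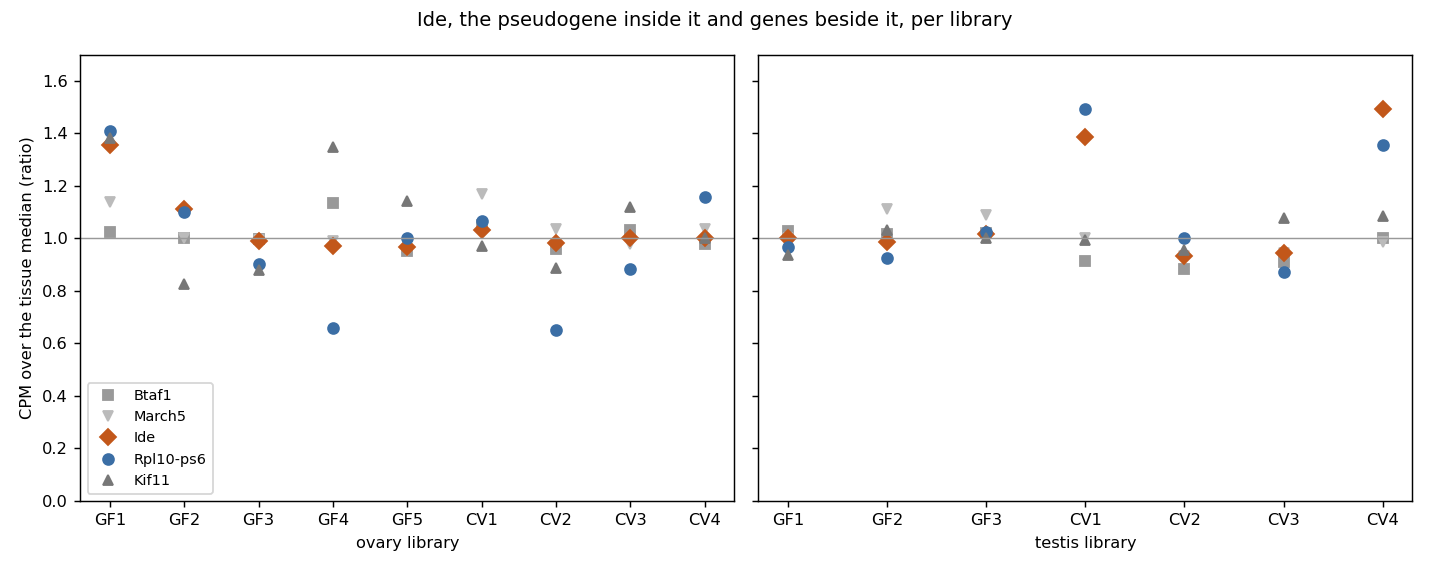
Level of Ide, the pseudogene Rpl10-ps6 inside it and the nearby genes Btaf1, March5 and Kif11 in each library, as a ratio to the median of the tissue (vertical axis linear, line at 1). Ide and Rpl10-ps6 were both at 1.35 or more in 3 libraries, GF ovary 1 and CV testes 1 and 4, while Btaf1 and March5 stayed at 1.17 or less in all 16. Kif11 was at 1.38 in GF ovary 1 and 1.35 in GF ovary 4, and at 0.994 and 1.09 in CV testes 1 and 4.

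Fgfbp3 overlapped between GF and CV libraries in both tissues. In GF ovaries it stood at 3.47, 4.72, 4.54, 4.83 and 4.14 CPM, and in CV ovaries at 3.75, 4.68, 5.0 and 4.30 CPM. In GF testes it had 8, 7 and 6 counts (0.413, 0.343 and 0.305 CPM), and in CV testes 15, 8, 7 and 10 counts (0.777, 0.411, 0.354 and 0.490 CPM). The log2 difference in the ovary was -0.04 (SE 0.147). The gene did not pass the filter in the testis, where the ratio of summed counts was 0.697 (95% counting interval 0.391 to 1.21).

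Of the 6 genes, 5 passed the filter in the ovary and 4 in the testis, SLC25A37 only through its CV libraries, and 3 in each tissue had GF and CV libraries that did not overlap, Wdfy1 and Efcab7 above and SLC25A37 below. Over all tested genes, 2.81% in the ovary and 16.7% in the testis had ranges that did not overlap, 1.41% with GF above and 1.4% with GF below in the ovary, and 6.55% and 10.1% in the testis. Since the genes were chosen with these contrasts known, nothing is read from their count. At an adjusted p under 0.05 (edgeR's quasi-likelihood test, Benjamini-Hochberg), 32 of 18095 genes (0.177%) were called in the ovary, 0.111% higher and 0.0663% lower in GF, or 91 genes with the library number as a replicate block. In the testis 1638 of 20269 (8.08%) were called, 3.67% higher and 4.41% lower in GF. For the tissue difference of GF minus CV, 29 of 21977 genes (0.132%) were called.

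The tissue contrast, testis over ovary averaged over GF and CV, played no part in the choice and was tested for the 3 genes that passed the filter in both tissues through GF and CV libraries alike. Wdfy1, Efcab7 and Ide were higher in the testis. Wdfy1 averaged 211 ± 8.83 CPM in GF and 127 ± 3.26 CPM in CV testes (SD, n = 3 and 4), and 57.2 ± 4.67 CPM in GF and 25.1 ± 2.33 CPM in CV ovaries (SD, n = 5 and 4), a log2 difference of 2.14 (SE 0.0498, edgeR adjusted p = 7.16e-18). Efcab7 averaged 49.6 ± 2.65 CPM in GF and 29.1 ± 1.93 CPM in CV testes, and 8.25 ± 0.417 CPM in GF and 4.25 ± 0.404 CPM in CV ovaries, a log2 difference of 2.70 (SE 0.0581, edgeR adjusted p = 2.13e-18). Ide averaged 494 ± 7.28 CPM in GF and 586 ± 144 CPM in CV testes, and 144 ± 22.0 CPM in GF and 134 ± 2.54 CPM in CV ovaries, a log2 difference of 1.98 (SE 0.101, edgeR adjusted p = 9.00e-12). Fgfbp3 averaged 0.354 ± 0.0547 CPM in GF and 0.508 ± 0.188 CPM in CV testes, and 4.34 ± 0.550 CPM in GF and 4.43 ± 0.539 CPM in CV ovaries, a log2 difference of -3.33 (SE 0.167). This is given without a test, since Fgfbp3 entered the fit of both tissues through the ovary alone and so had to differ. Every testis library lay above every ovary library for Wdfy1, Efcab7 and Ide, and below for Fgfbp3. The ovary libraries also held oviduct and adipocyte markers, and the part of such tissue in this contrast was not tested.

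SLC25A37 entered the fit through its CV libraries alone, and its GF side rests on 4 counts in testes and 3 in ovaries. Its log2 difference of 1.34 (SE 0.600) is therefore also given without a test, and it turned to -0.40 without GF testis 2, which holds all 4 GF testis counts. The 3 genes tested were called higher, but 93.2% of all 21977 genes were called, 47.4% higher and 45.8% lower, so a call in this contrast is near the background. With no further scaling the median of all genes moved by -0.80 and Wdfy1, Efcab7 and Ide were still higher in the testis by 1.34, 1.90 and 1.18. Per kilobase of exon, Ide was the highest and Wdfy1 the next of the 6 genes in all 4 groups. Ide averaged 65.8 CPM per kb in GF and 78.1 CPM per kb in CV testes, and 19.1 CPM per kb in GF and 17.8 CPM per kb in CV ovaries.

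**Figure D3:**
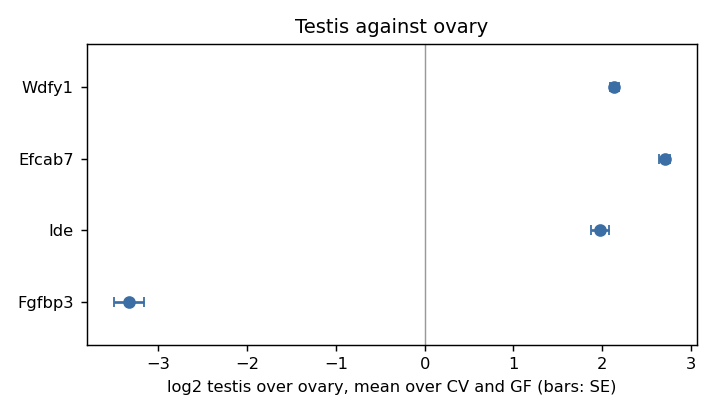
Log2 testis over ovary, averaged over GF and CV libraries, for Wdfy1, Efcab7, Ide and Fgfbp3; points are edgeR estimates over 16 libraries and bars are 1 SE. Wdfy1, Efcab7 and Ide lie between 1.98 and 2.70, and Fgfbp3, which was not tested, lies at -3.33.

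Genes that start within 500 kb of any of the 6 were examined to see how far a difference extended along the chromosome. The table holds 61 of them. In the ovary 0 of 29 tested neighbours were called by edgeR, DESeq2 or limma-voom, 0 had an unadjusted p under 0.05, and their median log2 difference was -0.02, beside 0.01 over all genes. Mrpl44, a mitochondrial ribosome gene that overlaps the start of Wdfy1 head to head by 126 bases, was at 16.3 CPM in both GF and CV ovaries (log2 -0.01, edgeR adjusted p = 0.994). In the testis Mrpl44 was at 14.5 CPM in GF and 12.7 CPM in CV (log2 0.21, SE 0.0882, edgeR adjusted p = 0.157). Itgb3bp, a centromere protein gene, spans all of Efcab7 on the other strand and had a log2 difference of 0.23 in the ovary (7.02 CPM in GF, 5.98 CPM in CV; edgeR adjusted p = 0.785) and of -0.04 in the testis (98.0 CPM in GF, 102 CPM in CV; edgeR adjusted p = 0.675). Whether counting used strand is not given in the sources used here, so reads of Wdfy1 and Mrpl44 in their overlap may not be told apart. Of the 2220 100-base words in annotated transcripts of Efcab7, 0 were found in Itgb3bp or any other gene, on either strand. That count does not cover shorter shared stretches or RNA outside the annotated transcripts, such as introns of Itgb3bp, whose reads may not be told apart from those of Efcab7.

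In the testis 5 of 34 tested neighbours (14.7%) were called, beside 8.08% of all genes. Fam124b, 422563 bases from Wdfy1, was at 24.3 CPM in GF and 18 CPM in CV testes (log2 0.45, SE 0.0756, edgeR adjusted p = 5.68e-05), and Nkx2-6, a homeobox gene near SLC25A37, was at 27.5 CPM in GF and 36.2 CPM in CV testes (log2 -0.38, SE 0.0609, adjusted p = 2.76e-05). Btaf1, next to Fgfbp3, was at 544 CPM in GF and 494 CPM in CV testes (log2 0.15, SE 0.0300, edgeR adjusted p = 0.00044). March5 (log2 0.16, edgeR adjusted p = 0.0188) and R3hcc1 (log2 -0.13, adjusted p = 0.0249) were called as well. The March5 call was lost without GF testis 2 (adjusted p = 0.191), GF testis 3 (0.114), CV testis 2 (0.0712) or CV testis 3 (0.0717). The R3hcc1 call was lost without any 1 of the 3 GF testes or without CV testis 2 or 3, with adjusted p from 0.0634 to 0.0941. All 5 calls were lost in a joint fit of both tissues (edgeR adjusted p from 0.269 to 0.97), where their log2 differences were 0.43 for Fam124b, -0.40 for Nkx2-6, 0.14 for Btaf1, 0.14 for March5 and -0.15 for R3hcc1 and every SE was larger (0.0572 to 0.199, against 0.0300 to 0.0756). These differences are between 0.13 and 0.45 in size, beside 0.75 and 0.79 for Wdfy1 and Efcab7. The other nearest tested genes were not called in either tissue, among them Ap1s3, a clathrin adaptor gene beside Wdfy1 (ovary log2 -0.43, adjusted p = 0.927), and Tnks2, a tankyrase gene beside Fgfbp3 (ovary log2 0.00, adjusted p = 0.998; testis log2 0.01, adjusted p = 0.925).

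**Figure D4:**
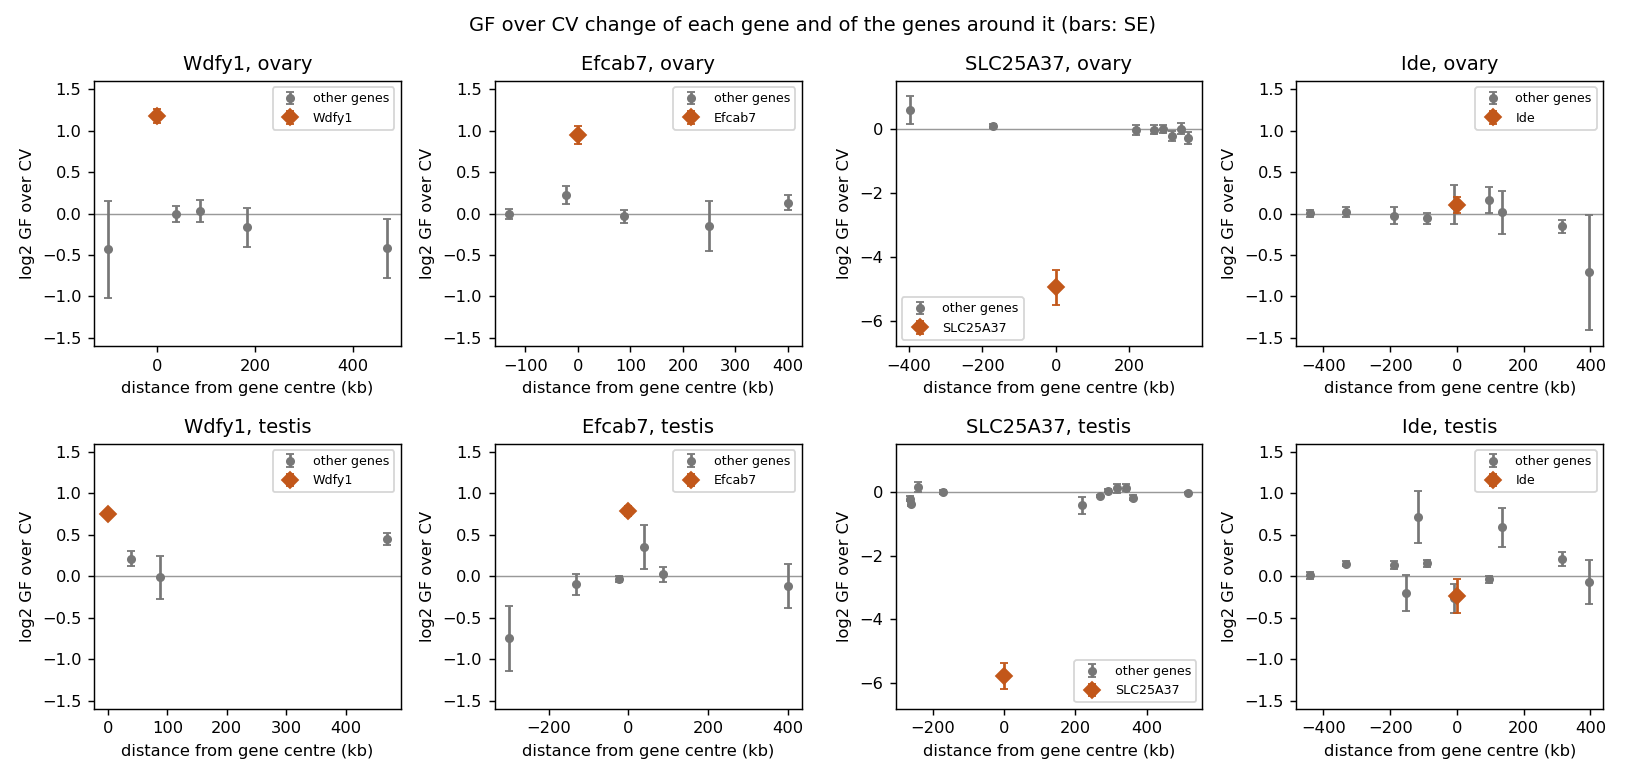
Log2 GF over CV with 1 SE for Wdfy1, Efcab7, SLC25A37 and Ide (orange) and for the tested genes around each (grey), against distance from the gene's centre in kb, in the ovary (top) and testis (bottom); the vertical scale of the SLC25A37 panels is wider. Wdfy1 and Efcab7 lie at 0.75 to 1.18. Ide lies at 0.10 in the ovary, where the genes around it run from -0.71 to 0.16. In the testis Ide lies at -0.23, near the low end of the genes around it (-0.27 to 0.72). Only Rpl10-ps6, inside Ide, is lower there. The fitted SLC25A37 values, -4.96 and -5.77, rest on GF counts near 0 and on single libraries.

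Genes of the pathways around the 6 were read from 8 lists of 81 genes, 80 of which were in the table. In the ovary 1 of 76 tested genes (1.32%) was called, beside 0.177% of all genes, and it was Nnt. In the testis 5 of 70 (7.14%) were called, Nnt among them, beside 8.08% of all genes. All 5 were higher in GF and 0 were lower, beside 3.67% of all genes called higher and 4.41% called lower. The list medians were 0.03 in the ovary and 0.04 in the testis on the log2 scale, beside 0.01 and 0.00 over all genes. Nnt was at 125 ± 15.6 CPM in GF and 58.5 ± 2.02 CPM in CV ovaries (log2 1.09, edgeR adjusted p = 0.000391), and at 136 ± 4.74 CPM in GF and 105 ± 3.63 CPM in CV testes (log2 0.38, edgeR adjusted p = 4.32e-10). Nnt was listed with its values known, so its call is no independent support.

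Of the other reported substrain variants, those given here were not called. They were Crb1, a retinal polarity gene (ovary log2 -0.74, edgeR adjusted p = 0.810; testis log2 0.08, adjusted p = 0.786), Cyfip2, an actin regulator (0.22, adjusted p = 0.927; -0.18, adjusted p = 0.515), Dock2, a leukocyte guanine exchange factor (-0.26, adjusted p = 0.816; 0.09, adjusted p = 0.656), and Mmrn1, a platelet protein (0.15, adjusted p = 0.885; 0.07, adjusted p = 0.916). Nlrp12, an innate immune sensor, passed the filter in neither tissue.

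None of the 11 tested genes of TLR3 and TLR4 to TRIF signalling in the ovary, or the 9 in the testis, was called, and neither was any of the 3 other WDFY genes. For Tlr3 the log2 difference was -0.09 in the ovary (edgeR adjusted p = 0.926) and 0.11 in the testis (adjusted p = 0.864). None of the 11 cilium base and Hedgehog genes was called in either tissue. Iqce, the partner of Efcab7, had a log2 difference of 0.05 in the ovary (edgeR adjusted p = 0.928) and -0.01 in the testis (adjusted p = 0.946), at 236 CPM in GF and 240 CPM in CV testes. None of the 17 genes of mitochondrial iron and haem was called in either tissue, and none of the FGF genes, 11 tested in the ovary and 9 in the testis.

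Among the nucleoside diphosphohydrolases, 1 of 7 was called in the testis, Cant1, an apyrase of the Golgi, at 79.0 CPM in GF and 72.5 CPM in CV testes (log2 0.14, edgeR adjusted p = 0.0367), and 0 of 8 in the ovary. Of the 9 peptide-degrading proteases and their M16 relatives, 3 were called in the testis and 0 in the ovary. They were Uqcrc2 (log2 0.20, edgeR adjusted p = 0.000422) and Uqcrc1 (0.09, adjusted p = 0.0432), core subunits of respiratory complex III that share the M16 fold of Ide without being known for peptide breakdown, and Ece1, an endothelin-converting enzyme (0.26, adjusted p = 0.0272). Nrd1, the protease closest to Ide in kind, had a log2 difference of 0.04 in the ovary (edgeR adjusted p = 0.941) and -0.07 in the testis (adjusted p = 0.318).

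The genes whose levels were most like each of the 6 were ranked by Pearson's r of log2 CPM over 16 libraries after subtracting the mean of each tissue, among the other genes tested in both tissues (16130, or 16131 for Entpd4 and Fgfbp3, which were not tested in both). The libraries, their depth and any GF against CV difference are shared by all genes, so the values are descriptions. The gene most like Wdfy1 was Efcab7 and the reverse (r = 0.98), although they lie on chromosomes 1 and 4. After subtracting group means their r was 0.51. Next for Wdfy1 came Gm2792, a predicted gene (0.93), and Nnt (0.93), and for Efcab7 the histone genes Hist1h4i and Hist1h2ao (both 0.96). For SLC25A37 they were Ero1lb, an oxidase of the endoplasmic reticulum (0.96), and the histone genes Hist1h4m (0.96) and Hist1h2bm (0.95). The reads of histone genes can be shared among near-identical copies. For Ide the values were lower, 0.87 for Mir671, 0.82 for Ets1 and 0.78 for H2-Ke6. For Fgfbp3 they were 0.82 for Chst11, 0.77 for Dynlrb1 and 0.77 for Pkia. For Entpd4 they were 0.91 for Pafah1b1, 0.86 for Klhl8 and 0.85 for Prkci, on at most 15 counts per library.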

How the data were processed

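The table the authors deposited holds raw read counts, 1 row per gene, for 16 libraries. Per the labels' protocols, ribosomal RNA was depleted and libraries were stranded and sequenced as paired reads, and per the submitters' processing notes STAR 2.4.0i and the mm10 build were used. How reads were counted, with which annotation and with or without strand, is not given in the sources used here. Counts were tested with edgeR 4.0.16 in R 4.3.3 (TMM, its expression filter, robust quasi-likelihood F test, Benjamini-Hochberg over all genes tested, threshold 0.05). GF minus CV was fitted in each tissue alone. The tissue contrast, its interaction and all CPM levels used the 16 libraries together. The methods were tested on simulated counts. Positions came from GENCODE M21 (GRCm38) by gene identifier, for 36308 of 38087 genes.

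The members and lists were chosen with earlier results of these data known. Named by rule were the 6 genes, called or nearest neighbours within 500 kb, up to 2 called genes per list, the 3 most alike genes and the other substrain variants, of which 1 is not reported here, though it stays in the fits and counts. Kif11, the copy of Loxl2, the ENTPD4 rows, Iqce, Tlr3, Nrd1 and Uqcrc1 were named outside it, after their values were seen. Likeness used log2 CPM with a prior count of 2.

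Replicate pairs differed by a chi-square per degree of freedom of 2.37 to 34.3 over genes with at least 20 counts, so each library counted once. Libraries of the same number, taken from the labels, deviated together in the ovary (r = 0.366, 0.246, 0.200 and 0.360) but not in the testis (-0.042, 0.015 and -0.025). Alternatives were RLE or no further scaling, no filter, DESeq2 1.42.0, voom in limma 3.58.1, a replicate block, a joint fit and leaving out each library. The intervals of count ratios are 95% exact binomial and cover counting error only.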

Additional observations from a re-analysis of the deposited data

Results flagged for a closer look

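Among 18 groups of 4 or 5 libraries examined for a value far from the rest, 1 stood out, and chance marks about 1 in 20. It was Entpd4 in CV testes, where library 2 had 0 counts (0 CPM) and the others 0.104, 0.101 and 0.0979 CPM, which is 2 counts each. A count of 0 allows up to 3 counts, or 0.154 CPM in that library, so the gap is within counting error. CV testes 1 and 4, which stood apart for Ide, did not meet the criterion because they lay close to each other.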

How the results depend on the processing

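The log2 differences of Wdfy1 (1.13 to 1.24 in the ovary, 0.72 to 0.77 in the testis) and Efcab7 (0.90 to 1.0 and 0.74 to 0.82) kept their direction in all 16 ovary and 14 testis alternatives. The separation of Wdfy1, Efcab7 and SLC25A37 held under RLE and under no further scaling. Leaving out libraries, also those without a partner in the replicate block, cannot end it, and leaving out 1 gave 3 to 4 separated genes in each tissue, the added one being Entpd4 in the ovary and Fgfbp3 in the testis. The count of called genes in the ovary was 95 with DESeq2, 91 with the replicate block and 93 with the joint fit, and 25 to 33 with 1 library left out. In the testis it was 122 with the joint fit and 996 to 2084 with 1 library left out, the lowest without GF testis 2. For the tissue difference of GF minus CV it was 118 with DESeq2, 16 with the replicate block and 13 to 37 with 1 library left out. Called neighbours numbered 1 in the ovary and 0 in the testis with the joint fit, and 0 to 0 and 3 to 7 with 1 library left out, the 3 without GF testis 3. The joint fit uses 1 spread for both tissues. The replicate block changed no call on Nnt, the called neighbours or the tissue contrast of Wdfy1, Efcab7 and Ide. The fitted log2 difference of SLC25A37 was -9.32 in the testis without GF testis 2, and in the ovary -5.88 without GF ovary 5 and -5.87 with the replicate block. Its tissue contrast ran from -0.402, without GF testis 2, to 1.80 with 1 library left out and was 0.591 with no further scaling. Except where a construction is named, the cause was not tested. Depth limits Entpd4 in all groups, Fgfbp3 in the testis and SLC25A37 in GF libraries.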
